A study of Drosophila melanogaster with 3 samples.

Results

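The vacuolar ATPase (V-ATPase) genes of the fly were taken as the protein-coding genes of the Ensembl annotation whose name starts with Vha. There were 33 of them among 13945 protein-coding genes on the 6 main chromosome arms. The binding data came from chromatin immunoprecipitation followed by sequencing (ChIP-seq) in whole Drosophila melanogaster prepupae of strain eg-GFP, labelled as 2 days old. These flies carry a transgene for the protein Eagle (gene eg), an orphan nuclear receptor, fused to green fluorescent protein, and the tag was precipitated with an anti-GFP antibody. All 3 biological replicates belong to 1 group with the same strain, stage and age, so no conditions could be compared and no test between groups was possible. Whole animals mix all tissues, and weak signal throughout the body and strong signal in few cells cannot be told apart.

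The V-ATPase is a rotary proton pump that acidifies lysosomes, endosomes and secretory vesicles, and it also sits on the plasma membrane of some epithelia. Its V1 sector in the cytosol hydrolyses ATP, and its V0 sector in the membrane carries the protons. In flies many subunits are encoded by several paralogues, of which some are used widely and others in few tissues. In mammals the factor TFEB, whose fly relative is Mitf, is known to act on lysosomal and V-ATPase genes through sites with the core CACGTG.

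A gene was said to have a promoter peak when the summit of a peak in the authors' conservative list lay within 1000 bp of any of its transcription start sites (TSSs). By this rule 9 of the 33 Vha genes had a promoter peak, or 27.3% (95% Wilson interval 15.1 to 44.2, counting error only). Over all protein-coding genes the share was 27.2%. The Vha genes therefore had promoter peaks at the background rate. Peaks were overlapped by at least 1 bp in the lists of all 3 replicates for 6 of the 33 genes (18.2%), against 14.8% of all genes. The list of replicate 1 on its own placed a summit within 1000 bp of 8 Vha genes, against 20.9% of all genes. That of replicate 2 did so for 7, against 21.0% of all genes, and that of replicate 3 for 7, against 24.3%. The mean was 7.33 ± 0.577 genes (SD, n = 3), or 22.2% ± 1.75. The replicate lists held 6215, 6024 and 7476 peaks, and the conservative list 9370. The read depth behind them is unknown.

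**Figure D1:**
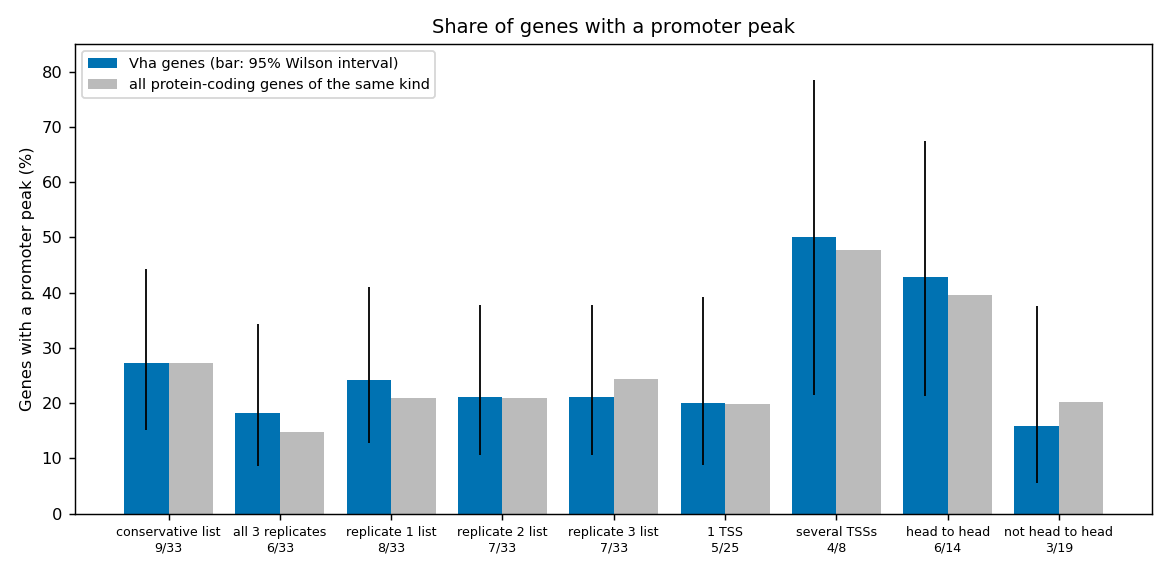
Percentage of Vha genes (blue, with 95% Wilson intervals as lines) and of all protein-coding genes of the same kind (grey) that had a promoter peak, by list, by number of TSSs and by whether a coding gene starts on the opposite strand within 1000 bp upstream. The fractions under the bars are Vha genes with a peak over Vha genes of that kind; every grey bar lies inside the interval of the blue bar beside it.

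The share with a promoter peak varied with gene layout, so the Vha shares are given beside those of all genes of the same layout, without a test. Of 25 Vha genes with 1 annotated TSS, 5 had a promoter peak (20.0%), against 19.9% of all such genes. Of 8 with several TSSs, 4 had one, against 47.7%. For 14 Vha genes a coding gene on the opposite strand starts within 1000 bp upstream, and 6 of these had a promoter peak (42.9%), against 39.5% of all genes in that arrangement. Among the other 19 the count was 3 (15.8%), against 20.3%. Of the 9 strongest promoter peaks, 1 for each gene, 6 lay within 1000 bp of the TSS of another coding gene, and for 4 the nearest TSS was that of another gene. These shares were not computed over all genes with a promoter peak, so the counts do not show whether the Vha genes differ in this.

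The sequences at 4 promoter summits are shown because they belong to both A-subunit genes with a peak, to the weaker summit of the V0 gene with the highest signal, and to a B-subunit peak that the thresholded list lacks. Each holds the summit and 50 bases on either side, on the strand of the Vha gene, as RefSeq gives them for genome release 6 (dm6). Capitals mark the motif GAGAGAG, the only one of 6 motifs searched that occurred in these windows.
Vha68-1, chr2L:13004204-13004304, minus strand: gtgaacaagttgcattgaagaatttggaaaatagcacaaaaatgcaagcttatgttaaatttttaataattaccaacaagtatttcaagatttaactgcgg
Vha68-2, chr2L:12974198-12974298, plus strand: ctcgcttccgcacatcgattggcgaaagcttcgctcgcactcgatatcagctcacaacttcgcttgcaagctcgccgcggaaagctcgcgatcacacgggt
Vha100-2, chr3R:18399192-18399292, minus strand: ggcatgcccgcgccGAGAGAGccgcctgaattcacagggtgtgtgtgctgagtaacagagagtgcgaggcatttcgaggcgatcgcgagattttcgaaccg
Vha55, chr3R:12627801-12627901, minus strand: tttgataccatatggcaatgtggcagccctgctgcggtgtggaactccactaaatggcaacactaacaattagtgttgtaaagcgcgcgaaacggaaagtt

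In the V1 sector 6 of 13 genes had a promoter peak (46.2%, 95% Wilson interval 23.2 to 70.9), and in the V0 sector 3 of 18 (16.7%, 5.84 to 39.2). Both intervals held the 27.2% of all protein-coding genes. Of the V1 peaks, those of Vha68-2 and Vha14-2 were overlapped in no replicate list and that of Vha36-1 in 2. The strongest peak of each of the 3 V0 genes was overlapped in all 3 replicate lists. Neither of the 2 accessory genes, VhaAC45 and VhaAC45RP, had one. Sorted by subunit there were 14 groups, and 6 of them (A, C, D, F, a and c) held at least 1 gene with a promoter peak. Of the 5 subunits encoded by 1 gene (B, C, E, G and H), only C had one. Of the 28 genes in groups with paralogues, 8 had one. These small counts were not tested. For the counts of genes, the share over all genes to read them against is again 27.2%. That share does not apply to the 6 of 14 groups, since a group with several genes can be counted through any of them.

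The A subunit, which holds the catalytic sites, has 3 genes on arm 2L. Vha68-1 (FBgn0265262, 2L 13000770 to 13004107, minus strand) had a peak at 2L 13004156 to 13004323. The summit was intergenic, 147 bp upstream of the TSS. Its signal, the authors' own measure of peak strength, was 317 (rank 1545 of the list). The replicate signals were 132, 94.0 and 97.3 (108 ± 20.9, SD, n = 3). All 3 replicates listed this peak, with replicate 1 the highest. Each replicate signal is on the scale of its own list. Here and below, the SD and the order of the replicates can therefore reflect those scales as well as binding. The same summit lies 226 bp upstream of mTor, the gene of the growth-controlling kinase TOR, whose TSS is 373 bp from that of Vha68-1 on the opposite strand.

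Vha68-2 (FBgn0263598, 2L 12974322 to 12978607, plus strand, 5 TSSs) had the weakest of the Vha promoter peaks. It lay at 2L 12974068 to 12974427, 74 bp upstream of a TSS, with a signal of 73.4 (rank 8051), and no replicate list overlapped it. In the ranked lists, which hold peaks before thresholding, the replicates had signals of 33.4, 30.6 and 33.1 there (32.4 ± 1.55, SD, n = 3) with scores of 352, 494 and 110. These scores are below 830, the lowest score in the thresholded lists. The list of replicate 1 held a separate summit of signal 45.4, downstream of a TSS of Vha68-2. Vha68-3 had no ranked summit within 1000 bp, and its nearest conservative summit was this peak of Vha68-2, 4538 bp upstream.

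The B subunit, the partner of A in the head of the pump, is encoded by Vha55 alone (FBgn0005671, 3R 12623762 to 12627829, minus strand). In the conservative list its nearest summit was 26295 bp upstream, so that by the rule it had no promoter peak. The ranked series list nevertheless held a peak at 3R 12627671 to 12628030, with its summit 22 bp upstream of a TSS, a signal of 109 and the highest possible score of 1000. By its signal it would have stood at rank 6030 of the conservative list. The replicate signals there were 44.7, 35.0 and 34.5, with scores of 1000, 721 and 601, so that the score passed in replicate 1 and was below 830 in replicates 2 and 3. The thresholded list of replicate 1 also lacked it. Vha55 was the only Vha gene in this position. All 9370 conservative peaks were found in that ranked list, which held 9586 peaks with a score of at least 830. The 216 left out (2.25%) lay mostly on 3R (134) and 2L (52). The replicate lists likewise left out 143, 151 and 194 such peaks. Per the deposited descriptions the thresholded lists were derived from a further file that the ranked lists did not use, and its part in this was not tested. With these peaks counted, 95 more protein-coding genes had a promoter peak, and the Vha count was 10.

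**Figure D2:**
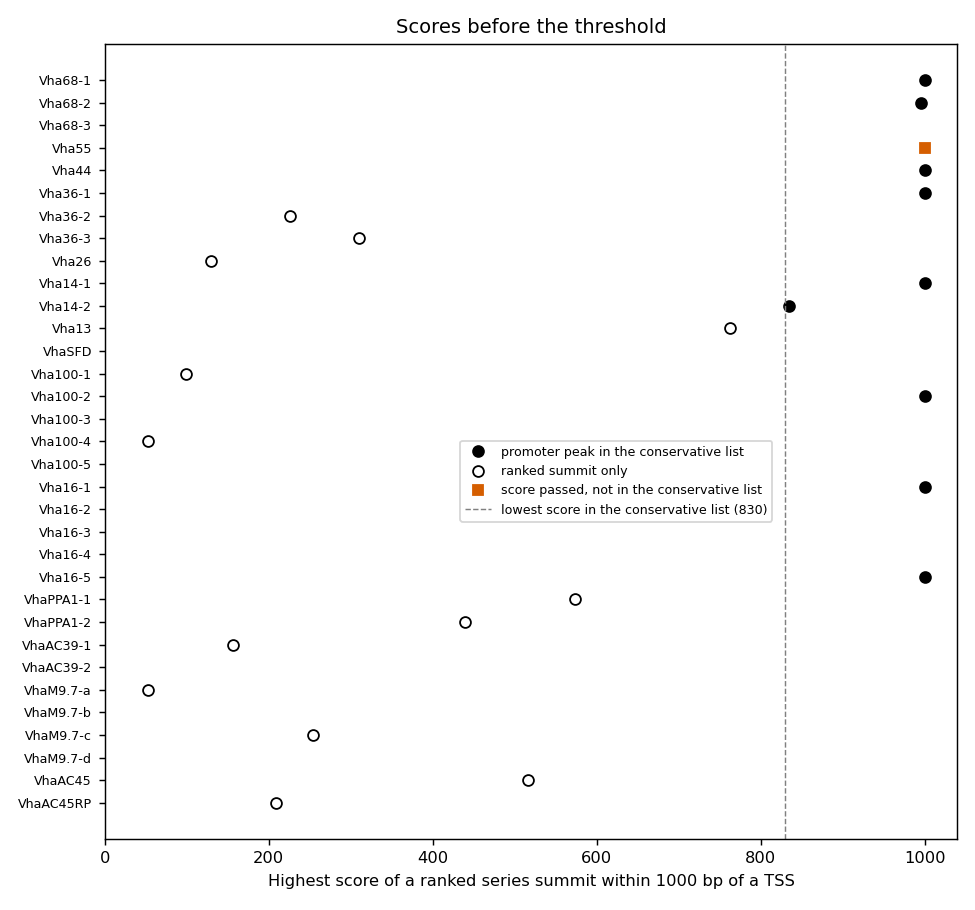
Highest score of any summit within 1000 bp of a TSS in the ranked series list (horizontal axis, from 0 to 1000) for each Vha gene; genes with no point had no such summit. Filled points are genes with a conservative promoter peak, open points had a ranked summit only, the square is Vha55 with a score of 1000 and no conservative peak, and the dashed line is the lowest conservative score of 830.

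Of the stalk subunits, C, D and F had promoter peaks. Vha44 encodes subunit C, which links the peripheral stalks of V1 to subunit a of V0. Its gene (FBgn0287825, 2R 16324813 to 16336637, minus strand) had a peak at 2R 16336641 to 16336763, with a signal of 225 (rank 2480) and the summit 53 bp upstream. Replicate signals were 51.9, 97.6 and 81.9 (77.1 ± 23.2, SD, n = 3), all listed, with replicate 1 the lowest. The gene Hmgs, for an enzyme of isoprenoid synthesis, starts 123 bp away on the opposite strand, and the summit is 70 bp upstream of it by the nearest of its TSSs and in its 5′ UTR by another.

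Vha36-1 encodes subunit D of the rotor (FBgn0022097, 2R 15541435 to 15542498, plus strand). Its peak at 2R 15541192 to 15541551 had a signal of 141 (rank 4517) with the summit 63 bp upstream, and only 9 bp upstream of the divergent gene CG8187. Replicates 2 and 3 listed it with signals of 46.4 and 48.3, while replicate 1 had no overlapping peak even in its ranked list. The paralogues Vha36-2 and Vha36-3 had their nearest summits at 2149 bp downstream and 1742 bp upstream.

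Both genes of subunit F had a promoter peak, in each case near the limit of 1000 bp. The summit of Vha14-1 (FBgn0262512, 2R 15679426 to 15680084, minus strand) was 861 bp downstream of its TSS, past the end of this gene of 659 bp, and 267 bp upstream of Gmppa, a gene for a sugar nucleotide enzyme. Its signal was 595 (rank 522), with 273, 167 and 151 in the replicates (197 ± 66.4, SD, n = 3). That of Vha14-2 (FBgn0037402) was 971 bp upstream, with a signal of 90.7 and a score of 834, close to the lowest score of 830. The replicates had signals of 31.4, 33.5 and 25.4 there with scores of 657, 740 and 487, so none listed it. Just outside the rule lay the nearest summits of VhaPPA1-2 (1634 bp), Vha36-3 (1742 bp), VhaAC45RP (2147 bp) and Vha36-2 (2149 bp). With a limit of 500 bp, both genes of subunit F dropped out and 7 Vha genes remained, against 23.2% of all genes at that limit.

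The remaining V1 subunits had none. Vha26, for subunit E of the peripheral stalk, had a summit 221 bp upstream in the list of replicate 1 alone (signal 42.8). Vha13, for subunit G, had a ranked summit 78 bp upstream with a score of 763, the highest of those below the threshold, and its nearest conservative summit was 2506 bp downstream. VhaSFD, for the regulatory subunit H, had no ranked summit within 1000 bp.

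In the V0 sector the peaks lay at subunits a and c. Subunit a, which forms the proton half-channels, has 5 genes, and only Vha100-2 had a promoter peak (FBgn0028670, 3R 18390323 to 18399169, minus strand). It had 2 promoter summits, 1 for each of its TSSs. The stronger, at 3R 18397087 to 18397348, had the highest signal of all Vha promoter peaks, 882 (rank 243). The replicates gave 308, 265 and 282 there (285 ± 21.5, SD, n = 3), and all listed it. Its summit was 301 bp upstream of the inner TSS of Vha100-2 and 234 bp downstream of a TSS of Vti1b, a SNARE gene of endosomal traffic, in a 5′ UTR of the latter. The weaker summit, at 3R 18399062 to 18399421, was 73 bp upstream of the outer TSS, with a signal of 138 (rank 4620). The replicates gave 27.0, 65.7 and 65.1 there (52.6 ± 22.2, SD, n = 3), all listed, with replicate 1 below the other two. The neighbouring gene Vha100-4 had its nearest summit 3827 bp upstream.

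Subunit c forms the rotating ring of the membrane sector and also has 5 genes. Vha16-1 (FBgn0262736, 2R 6625242 to 6633090, minus strand) had a summit 83 bp upstream of its outer TSS at 2R 6632993 to 6633352, with a signal of 218 (rank 2591). The replicates gave 75.0, 68.7 and 95.5 (79.7 ± 14.0, SD, n = 3), and all listed it. A second, intronic summit at 2R 6632312 to 6632671 was 108 bp upstream of the inner TSS, with a signal of 99.99 (rank 6540). The replicates gave 34.6, 30.1 and 42.7 (35.8 ± 6.41, SD, n = 3), and only replicate 3, the highest, listed it. At Vha16-1 no other coding gene had a TSS within 1000 bp of either summit. Vha16-5 (FBgn0032294) had a summit 332 bp upstream at 2L 10737195 to 10737554, with a signal of 162 (rank 3824). It lay 30 bp downstream of CG12299, in the 5′ UTR of that gene. The replicates gave 47.7, 90.1 and 38.9 (58.9 ± 27.3, SD, n = 3), and all listed it, with replicate 2 the highest. Vha16-2 and Vha16-3, which start 1572 bp apart, and Vha16-4 had no ranked summit within 1000 bp.

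No gene of subunits c″, d or e had a conservative promoter peak. The c″ genes VhaPPA1-1 and VhaPPA1-2 had ranked summits with scores of up to 574 and 440. The d gene VhaAC39-1 reached 156, and VhaAC39-2 had no ranked summit. Of the e genes, VhaM9.7-a and VhaM9.7-c reached 53 and 254, and VhaM9.7-b and VhaM9.7-d had none. The accessory genes VhaAC45 and VhaAC45RP reached 516 and 209.

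**Figure D3:**
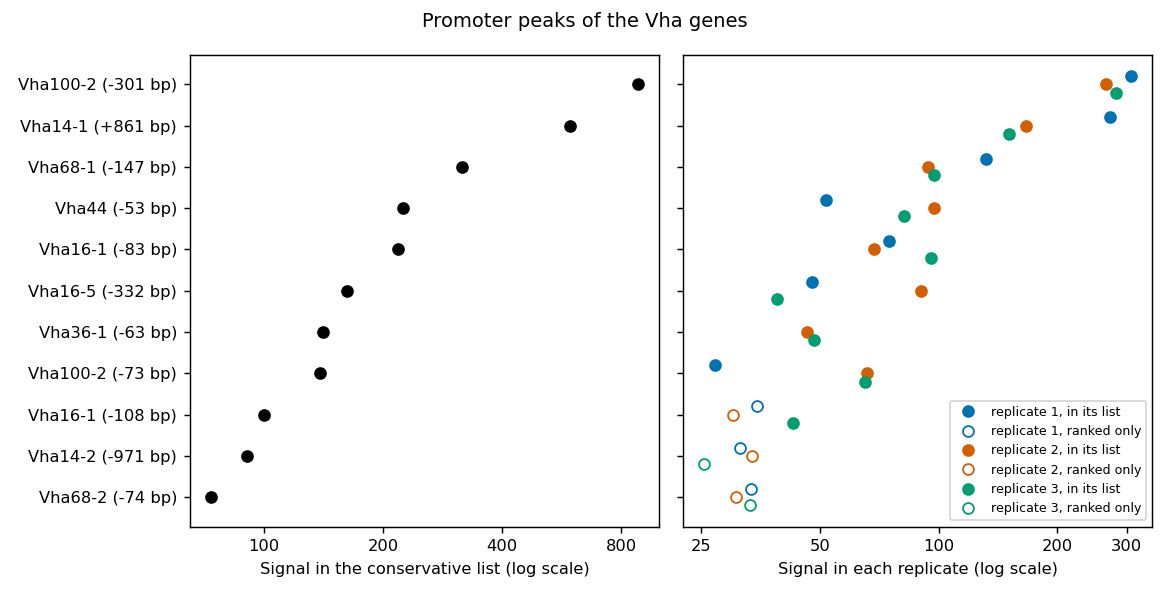
Signal of the 11 conservative promoter peaks of Vha genes in the conservative list (left) and in each replicate (right), both on log axes; labels give the gene and the distance of the summit from its nearest TSS. Filled points are peaks in the thresholded list of that replicate, open points were in its ranked list only; the upper 6 peaks and the weaker one of Vha100-2 were listed in all 3 replicates, and the 2 lowest, Vha14-2 and Vha68-2, in none.

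Taking the strongest promoter peak of each gene that had one, the median signal was 218 for the 9 Vha genes and 176 over all genes with a promoter peak. The Vha median stood above 72.3% of the conservative list, and that of all such genes above 63.3%. With the gene start as the only TSS the Vha value was 59.2%, and that of all genes was not recomputed. The median distance from the TSS, regardless of side, was 147 bp for the Vha genes and 182 bp over all. With upstream counted as negative, the Vha median was -83 bp. The summit lay upstream in 8 of 9 Vha genes, against 74.5% of all genes with a promoter peak. Peaks were listed in all 3 replicates for 66.7% of these Vha genes and 54.3% of all genes with a promoter peak. Support by a replicate is not independent of the series list, which was made from the same alignments. None of these differences was tested.

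The 24 Vha genes without a promoter peak were of different kinds. In 13 of them a summit within 1000 bp was ranked but scored below 830, with scores from 53 to 763 and a median of 226. Vha55 was described above, and the remaining 10 had no ranked summit there. Over all genes 64.0% had a ranked summit within 1000 bp, and 23 of the 33 Vha genes did. The nearest conservative summit of the 24 genes lay 1634 to 65885 bp away, at a median of 6861 bp, against 8755 bp over all genes without a promoter peak. The farthest was that of Vha100-5.

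**Figure D4:**
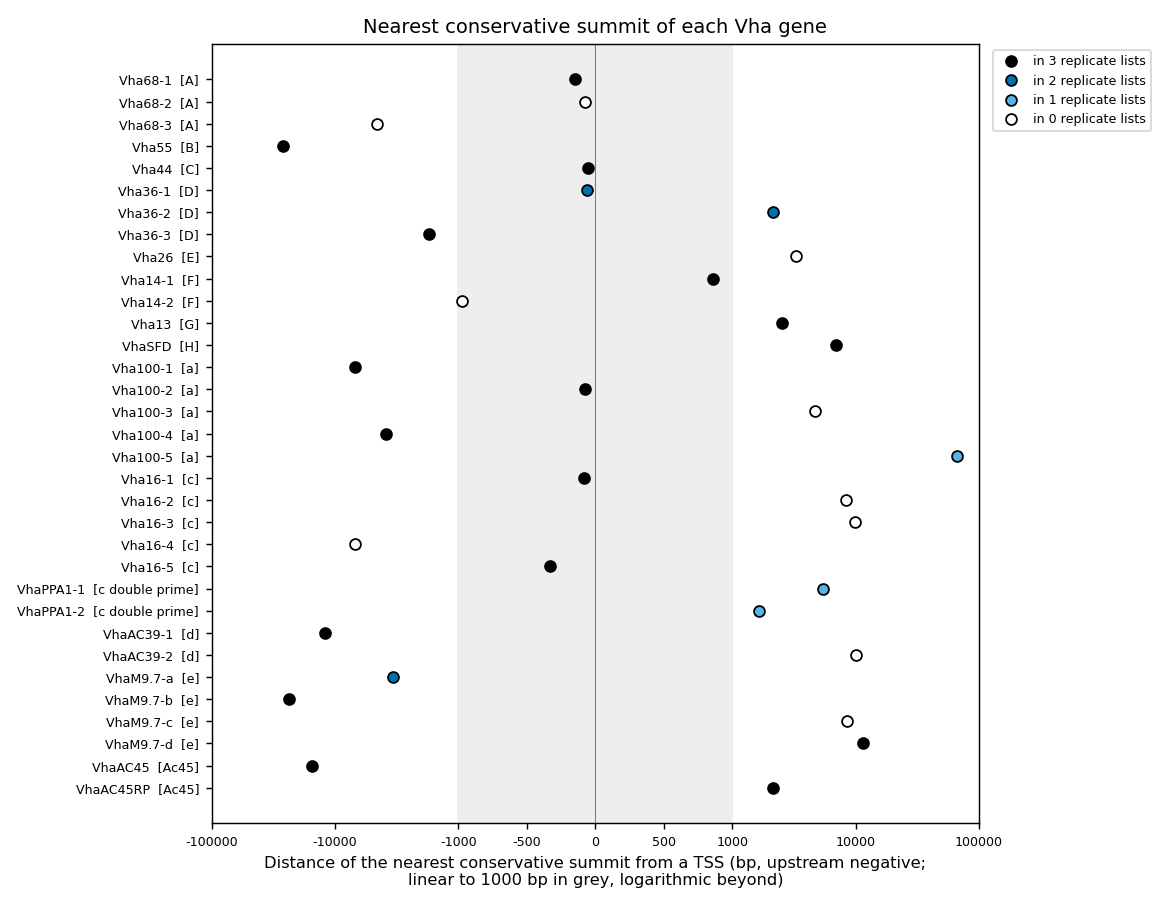
Distance from the TSS to the nearest conservative summit for each of the 33 Vha genes, with the subunit in brackets; upstream is negative, the axis is linear to 1000 bp (grey) and logarithmic beyond. Colour gives the number of replicate lists that overlapped the peak; 9 genes lie inside the grey band, 7 of them within 500 bp.

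Motifs were searched on both strands from 250 bases before to 50 after the start of each gene. The core CACGTG was present in 3 of 33 Vha genes (9.09%) and in 4.20% of all genes. The 3 were Vha44, VhaAC45RP and VhaM9.7-d, and only Vha44 had a promoter peak. Its copy started 47 bp upstream of the TSS as part of the longer TCACGTGA, within 50 bases of the peak summit. Among all conservative summits, near a TSS or not, 0.865% held CACGTG and 0.0854% held TCACGTGA that close. TCACGTGA contains CACGTG, so its matches are counted under both.

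With 500 bases either side of every TSS, CACGTG was found at 11 of 33 Vha genes (33.3%), against 15.4% of all genes. TCACGTGA was found at 3 (Vha16-1, Vha44 and Vha68-2), against 0.767% of all genes. Copies are shown from genes of different subunits, each as 30 bases on the strand of the gene, with CACGTG or TCACGTGA in capitals.
Vha68-2, chr2L:12975292-12975321, plus strand: tcaaagctctgTCACGTGAaacgaaagctc
Vha55, chr3R:12627756-12627785, minus strand: gtcatgtgacggCACGTGacgtcacagcag
Vha100-2, chr3R:18398791-18398820, minus strand: aatgcactttggCACGTGatgctggctgct
VhaSFD, chr2L:16727336-16727365, minus strand: cgttggacaagtCACGTGccagcttcttgg
The copy of Vha68-2 started 98 bp upstream of one of its TSSs, and that of Vha55 56 bp downstream of a TSS. The copies shown of Vha100-2 and VhaSFD started 361 and 473 bp downstream of a TSS. These windows thus also take in sequence downstream of the start. Of these 4 genes only Vha68-2 and Vha100-2 had a promoter summit by the rule, and neither of their copies shown lay within 50 bases of one. A match is a string of letters and does not show that a factor was bound.

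The other motifs were counted in the same windows. From 250 bases before to 50 after the start, the nuclear receptor half-site AGGTCA was present in 2 Vha genes (6.06%), against 5.88% of all. TAGAGCA, a half-site of the knirps family to which Eagle belongs, was in none of the 33, against 2.24% of all. The replication-related element TATCGATA was in 2, Vha55 and VhaSFD, against 9.36%, and GAGAGAG in 2, against 5.87%. With 500 bases either side of every TSS, AGGTCA was found at 11 Vha genes (33.3%), as many as for CACGTG, against 27.6% of all genes. GAGAGAG was found there at 6 (18.2%), against 15.7%, TATCGATA at 2 (6.06%), against 13.0%, and TAGAGCA at 2 (6.06%), against 9.75%. Within 50 bases of the 11 Vha promoter summits AGGTCA occurred at 1 (Vha16-1) and GAGAGAG at 2 (Vha100-2 and Vha16-1), and TATCGATA and TAGAGCA at none. Over all conservative summits, near a TSS or not, these shares were 1.76%, 3.71%, 0.651% and 0.736%. Shares over promoter summits alone were not computed.

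Genes that work with the pump were read against the same background of 27.2%. Of 5 genes of assembly and regulation only Rbcn-3B, a V-ATPase assembly factor, had a promoter peak (signal 165). Mitf lies on chromosome 4, where the conservative list holds no peak. Of 14 genes of lysosomal membrane proteins and enzymes 5 had one, led by the hexosaminidase gene Hexo2 (1322), the cathepsin gene CtsB (314) and Cln7 (215). Of 7 genes of fusion with the lysosome 2 had one, car (158) and Arl8 (86.4). Of 12 genes of TORC1 signalling, which is controlled on the lysosome, 6 had one. They were led by Lamtor3 (1975), whose product helps anchor TORC1, then mTor (317, the peak shared with Vha68-1) and raptor (236). The mitochondrial ATP synthase, a rotary machine of related build, had 4 of 15, led by ATPsynE (260). These lists were not tested.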

How the data were processed

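Peak lists from 3 biological replicates of 1 group were analysed. Per the deposited descriptions, they are on dm6, and each replicate list was derived from the alignments of that replicate while series lists used all 3. Lists were ranked, or thresholded, by irreproducible discovery rate; neither the aligner nor the peak caller is given in the sources used here. The deposited signal is the authors' peak strength on a scale of each list. Per the deposited format, the score expresses that rate as a whole number up to 1000. The deposited −log10 q-value was not used in any result. In 68.8% of conservative peaks the width was 360 bp, so that many summits are centres of fixed-width calls. The control experiment that the labels name was not analysed here. The 32 member columns of the ranked series lists were not used.

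Genes came from Ensembl release 115 (BDGP 6.54), without transposons. Sequence came from the RefSeq release 6 genome, in which 99.83% of annotated start codons read ATG. Of 9370 conservative peaks, 9369 lay on 2L, 2R, 3L, 3R, 4 and X. A peak counts for every gene with a TSS within 1000 bp of the summit. Support means an overlap of at least 1 bp. Replicate signals come from the thresholded list where it overlaps, otherwise from the ranked list. Wilson intervals (95%) cover counting error only, and genes are not independent. No test was run, since there is 1 group.

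The members, lists and motifs were chosen with earlier results of these data known. Every Vha gene with a promoter peak is named with its values, and up to 3 genes of each other list are named by signal. Alternatives changed the distance limit, the TSSs, the list, the overlap and the replicates. The distance and overlap code was tested on simulated data. The scripts ran in Python 3.11.15 with pandas 2.3.3 and NumPy 2.4.6. Intervals came from SciPy 1.17.1, and plots from matplotlib 3.10.9.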

Additional observations from a re-analysis of the deposited data

How the results depend on the processing

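The count of 9 Vha genes stayed within 1.5 times under 14 alternatives, from 6 to 11. It was 11 in the longest thresholded series list (11724 peaks, 30.9% of all genes), which added Vha13 and VhaPPA1-1, and 6 when a peak counted only for its nearest gene (21.0% of all genes). It was 10 with the left-out peaks counted, an alternative chosen after the data were seen (27.9% of all genes). With the list of replicate 1, 2 or 3 left out, peaks overlapped in both other lists gave 7, 6 and 6 Vha genes. The shares of all genes were 17.5%, 16.2% and 16.1%. The same numbers serve for the count supported in all lists, so this is 1 check. The conservative list itself still came from the alignments of all 3 replicates. The mean over replicate lists became 7 to 7.5 when 1 list was left out. The signal percentile of 72.3 fell to 59.2 with the gene start as the only TSS, under the 63.3 of all genes with every TSS counted. The inner TSS of Vha100-2 is then not counted, and its summit of percentile 97.4 is replaced by its weaker one of percentile 50.7. The median distance of -83 bp became -147 bp in the series list of 8252 peaks, and the cause was not tested. The count of 3 genes with CACGTG was 1 within 50 bases of summits and 11 with 500 bases either side of every TSS; these windows differ both in length and in the starts or summits they are set on, and the cause was not tested further. No paired analysis was possible because there is only 1 group. The unknown depth limits what the absence of a peak shows.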
